A study of Mus musculus with 12 samples.

Results

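The p53 pathway and target genes are a set of 31 mouse genes that were chosen by symbol and comprise the transcription factor *Trp53*, its main regulators, and genes that p53 is known to activate. The 31 symbols matched 31 of the 40551 Ensembl genes counted in 12 total RNA-seq libraries of mouse liver. All 31 passed the filter on low counts and were tested among 15070 genes. By role, the set holds 4 regulators, 7 genes of the cell cycle, 11 of cell death, 5 of DNA repair, 3 of metabolism, and 1 of signalling. The livers came from 4 genotypes with 3 libraries each, namely WT, *Mcl1* KO, *Sting1* KO, and *Mcl1* *Sting1* DKO mice, and the labels name no treatment. In *Mcl1* KO mice, called *Mcl1*Δhep in the study, Cre driven by the albumin promoter deletes the floxed antiapoptotic gene *Mcl1* in hepatocytes, so that the other cells of the liver keep it. The DKO combines this deletion with the *Sting1* knockout, which is present in all cells and which *Sting1* KO mice carry alone. STING is the adaptor of the cGAS pathway, which detects DNA in the cytosol. WT and *Mcl1* KO mice were 2 months old, and the sources used here do not say at which age the sequenced livers of both *Sting1* genotypes were taken. Mice of both sexes were used, each liver gave 1 library, and the labels do not say which mice were littermates.

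p53 is held at a low level in unstressed cells because MDM2, an E3 ubiquitin ligase, marks it for degradation. DNA damage or other stress activates kinases such as ATM and CHEK2 that free p53 from MDM2. Stabilized p53 binds DNA as a tetramer and activates genes that stop the cell cycle, start apoptosis, repair DNA, or switch p53 off again. The regulation of p53 itself is thus mostly at the level of the protein, which these RNA data do not measure. In liver, hepatocytes are long-lived and rarely divide, and the p53 target p21, encoded by *Cdkn1a*, restrains their entry into the cell cycle.

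A p53 binding site consists of 2 decamers, each with a C and a G around its center, that are adjacent or separated by a short spacer. Sites were searched in GRCm39 within 2500 bases on each side of the start of the canonical GENCODE transcript, allowing a spacer of at most 1 base and at most 2 mismatches over both decamers. The consensus decamer is its own reverse complement, so each match counts for both strands. A site was found in 9 of the 31 genes (29%), compared with 12.9% of the 13664 tested and 11.3% of all 21753 protein-coding genes. A site without mismatch was found in 2 of the 31, *Zmat3* and *Trp53inp1* (6.45%), compared with 0.3% of tested and 0.23% of all protein-coding genes. The sites below are those of the 3 genes whose RNA passed the threshold in a comparison (*Psrc1*, *Eda2r*, and *Plk2*) and the matches without mismatch. They are written in the direction of the gene's transcription, and capitals mark the 4 central bases of each decamer.
Psrc1, intron, chr3:108291972-108291991 (+ strand): gggCATGttgaggCATGccc
Eda2r, intron, chrX:96420140-96420159 (- strand): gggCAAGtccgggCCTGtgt
Plk2, upstream, chr13:110529416-110529435 (+ strand): caaCATGcccgggCTTGcat
Plk2, upstream, chr13:110530928-110530947 (+ strand): gatCTTGcttagaCTTGttg
Trp53inp1, upstream, chr4:11155112-11155132 (+ strand): aaaCATGtccaggaCTAGcct
Zmat3, intron, chr3:32418480-32418499 (- strand): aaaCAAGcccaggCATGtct

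Counted from the start base, the *Psrc1* site began 852 bases downstream and had 1 mismatch, and the *Eda2r* site began 680 bases downstream with 2. The *Plk2* sites began at positions -1599 and -87, upstream of the start, each with 2 mismatches. Sites with 2 mismatches were also found for *Fas*, *Perp*, and *Pidd1*. The last of the 9 genes was *Ccng1*, whose sites had 1 mismatch. For the other 22 genes, *Cdkn1a* among them, no site by these criteria was in this window. This says nothing of sites with more mismatches or a longer spacer, or of sites farther away. In the promoter window, from 250 bases before the start to 50 bases from it on, a decamer without mismatch occurred in 8 of the 31 genes (25.8%) and in 7.47% of tested protein-coding genes. These were *Aen*, *Ccng1*, *Gadd45a*, *Mdm2*, *Ppm1d*, *Sesn1*, *Trp53*, and *Trp53inp1*, and none of them passed the threshold in any comparison of the main fit below. Alternative fits could differ, as for *Mdm2*, which passed it in 1 alternative of the comparison of 6 with 6 libraries. The window of *Aen*, which had the smallest p of the 8 in the comparison of 6 with 6 libraries, is printed with the decamer in capitals.
Aen, chr7:78545425-78545724 (+ strand): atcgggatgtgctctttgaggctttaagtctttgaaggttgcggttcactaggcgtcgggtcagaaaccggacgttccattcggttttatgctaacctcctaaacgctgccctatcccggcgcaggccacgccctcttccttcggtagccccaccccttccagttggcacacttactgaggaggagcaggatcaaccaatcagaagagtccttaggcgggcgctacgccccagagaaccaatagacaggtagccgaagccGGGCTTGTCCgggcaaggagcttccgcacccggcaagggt

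**Figure D1:**
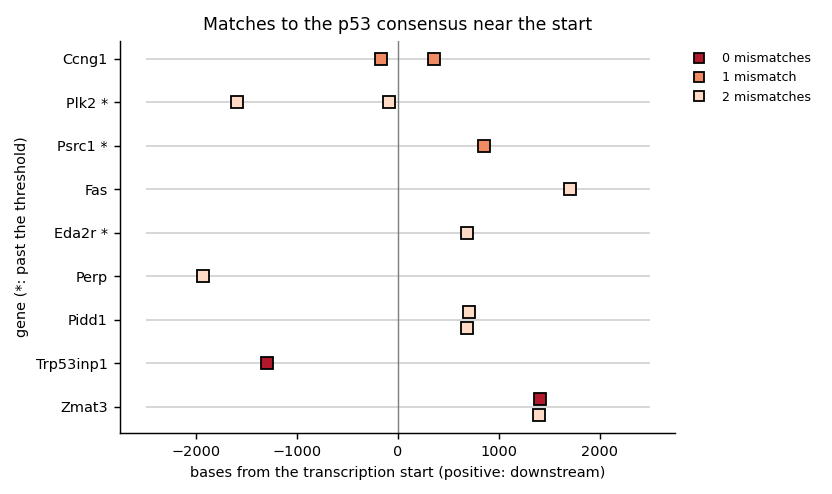
Position of matches to the p53 consensus in the 9 genes that had one, in bases from the transcription start (0, vertical line), with the color giving the number of mismatches and asterisks marking genes past the threshold in at least 1 comparison. Matches lay on both sides of the start, and the 2 genes with a match without mismatch, *Trp53inp1* and *Zmat3*, carry no asterisk.

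The libraries held 28826367 to 45266387 counts on genes, and values below are in CPM, counts divided by the TMM-scaled library size, unless stated otherwise. *Mcl1* had 77 to 104 CPM in the 6 libraries with intact *Mcl1* and 18.1 to 34 in the 6 with hepatocyte deletion. *Sting1* RNA did not mark its genotype, with 2.11 to 2.53 CPM in WT and 1.16 to 2.7 in the libraries labelled *Sting1* KO. It had 1.9 to 2.53 in those labelled DKO and 3.67 to 6 in *Mcl1* KO, so both *Sting1* groups are named here by their labels alone. Y-linked genes were expressed in WT replicates 2 and 3 and DKO replicate 1, at 142.5 to 147.4 CPM in sum, and reached at most 0.2008 in the other libraries. *Mcl1* KO replicate 3 held skeletal muscle transcripts (summed level of 6 markers 1172 CPM, at most 6.58 elsewhere). *Mcl1* KO replicates 2 and 3 had 2.77 and 1.549% of counts on small structured RNAs, compared with 0.1916 to 0.9797% in the other libraries. *Apob*, a hepatocyte gene with a very long transcript, was at 3904 and 3249 CPM in these same libraries and at 7379 to 12422 elsewhere.

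The 31 genes differed widely in level in the liver. In TPM, a scale of levels per transcript length, *Perp*, a membrane protein of desmosomes, was the highest in the 6 *Mcl1*-intact libraries (161 ± 17.9, SD), followed by *Ei24*, a protein of the endoplasmic reticulum (79 ± 12.9). *Plk3* (42.5 ± 21.1), *Ccng1* (37.3 ± 6.3), *Trp53inp1* (26.1 ± 2.94), and *Fas* (22.2 ± 3.68) came next, and *Plk3* ranged from 17.6 to 72.2 TPM, so its place among its neighbours was not resolved. *Trp53* was the 17th of 31 at 4.85 ± 0.699 TPM. The lowest were *Cdkn1a* (0.281 ± 0.105), *Tnfrsf10b* (0.103 ± 0.063), and *Psrc1* (0.0937 ± 0.0552). In the 6 *Mcl1*-deleted libraries, these 3 averaged 2.91, 0.866, and 1.08 TPM, while *Perp* averaged 164 and *Ei24* 72.

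To ask how these genes responded to hepatocyte loss of *Mcl1*, the 6 *Mcl1*-deleted libraries were first compared with the 6 *Mcl1*-intact libraries, as the mean of the effects on both *Sting1* backgrounds. In this comparison, 10 of 31 genes were higher with *Mcl1* deletion and 0 were lower at an adjusted p under 0.05 (edgeR's quasi-likelihood test, Benjamini-Hochberg over all tested genes). Among all tested genes, 9.9% were higher and 6.83% lower. The 10 were the cell cycle inhibitors and regulators *Cdkn1a*, *Btg2*, *Plk2*, and *Psrc1*, the cell death genes *Tnfrsf10b*, *Eda2r*, *Phlda3*, and *Apaf1*, the DNA polymerase gene *Polk*, and the receptor kinase gene *Epha2*. For 5 of them, *Cdkn1a*, *Psrc1*, *Tnfrsf10b*, *Eda2r*, and *Phlda3*, each *Mcl1*-deleted library was above each *Mcl1*-intact one, which was the case for 4.27% of all tested genes, and 0 of 31 were lower without overlap, compared with 2.67%. The median log2 fold change of the 31 genes was 0.27, compared with -0.019 over all tested genes, and 23 of 31 values were positive. These libraries are of whole liver, so that more cells of a type and more RNA per cell cannot be told apart. *Psrc1* and *Tnfrsf10b* had so few counts in *Mcl1*-intact libraries (1 to 7 and 0 to 11) that they passed the filter only through the *Mcl1*-deleted groups. Without these 2 genes, 8 members were called higher and 3 were higher without overlap in 6 against 6 libraries.

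Between *Mcl1* KO and WT livers, 9 genes were higher, compared with 10.8% of all tested genes, and 2 were lower, compared with 9.43%. The 9 were those named above except *Epha2* (7 without *Psrc1* and *Tnfrsf10b*), and the 2 were the excision repair genes *Xpc* and *Ercc5*. Between the libraries labelled DKO and *Sting1* KO, *Psrc1*, *Eda2r*, and *Phlda3* were higher, 3 of 31 compared with 0.677% of all tested genes, and 0 were lower, compared with 0.126%. Without *Psrc1*, 2 were higher. The median log2 fold change of the 31 genes was 0.24 in the first and 0.27 in the second comparison (-0.004 and -0.009 over all tested genes). WT replicates 2 and 3 shared Y-linked expression that no *Mcl1* KO library had, and with it as a covariate 6 genes were called between *Mcl1* KO and WT and 1 between DKO and *Sting1* KO. In that fit, 10.2 and 0.299% of all tested genes were called, compared with 20.2 and 0.803% without the covariate. With a covariate for the small structured RNA share described above, 4 and 2 members and 3.22 and 0.617% of all tested genes were called. The calls of *Cdkn1a*, *Btg2*, *Psrc1*, *Tnfrsf10b*, *Eda2r*, and *Phlda3* between *Mcl1* KO and WT were kept whichever 1 of the 12 libraries was left out, and those of *Apaf1*, *Polk*, *Xpc*, and *Ercc5* in 2, 3, 1, and 3 of the 12 cases. Between DKO and *Sting1* KO, the calls of *Psrc1*, *Eda2r*, and *Phlda3* were lost in 8, 5, and 10 of the 12 cases, and 0 members and 17 of 14409 genes were called when only these 2 genotypes were fitted.

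**Figure D2:**
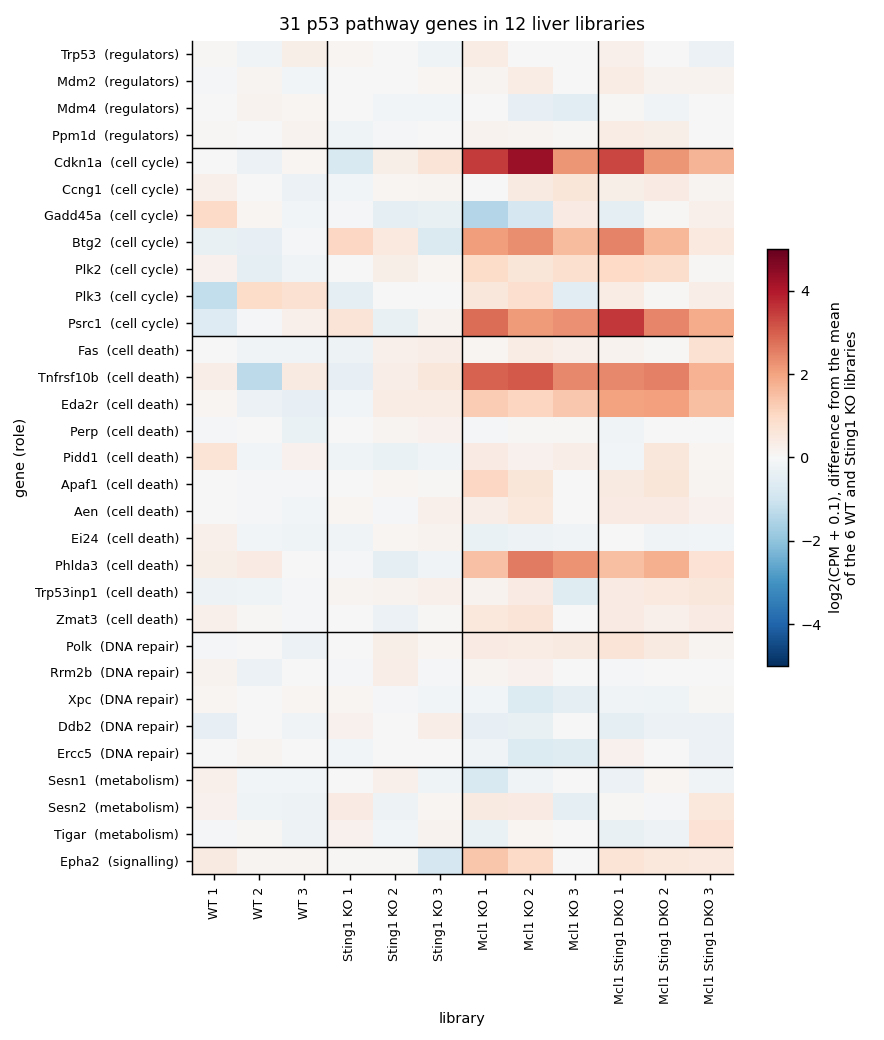
Heat map of the 31 genes (rows, grouped by role) in the 12 libraries (columns, grouped by genotype), where color gives log2(CPM + 0.1) minus the mean of the 6 WT and *Sting1* KO libraries. *Cdkn1a*, *Psrc1*, *Tnfrsf10b*, *Eda2r*, and *Phlda3* are higher in all 6 *Mcl1*-deleted libraries, whereas most other rows stay near 0.

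**Figure D3:**
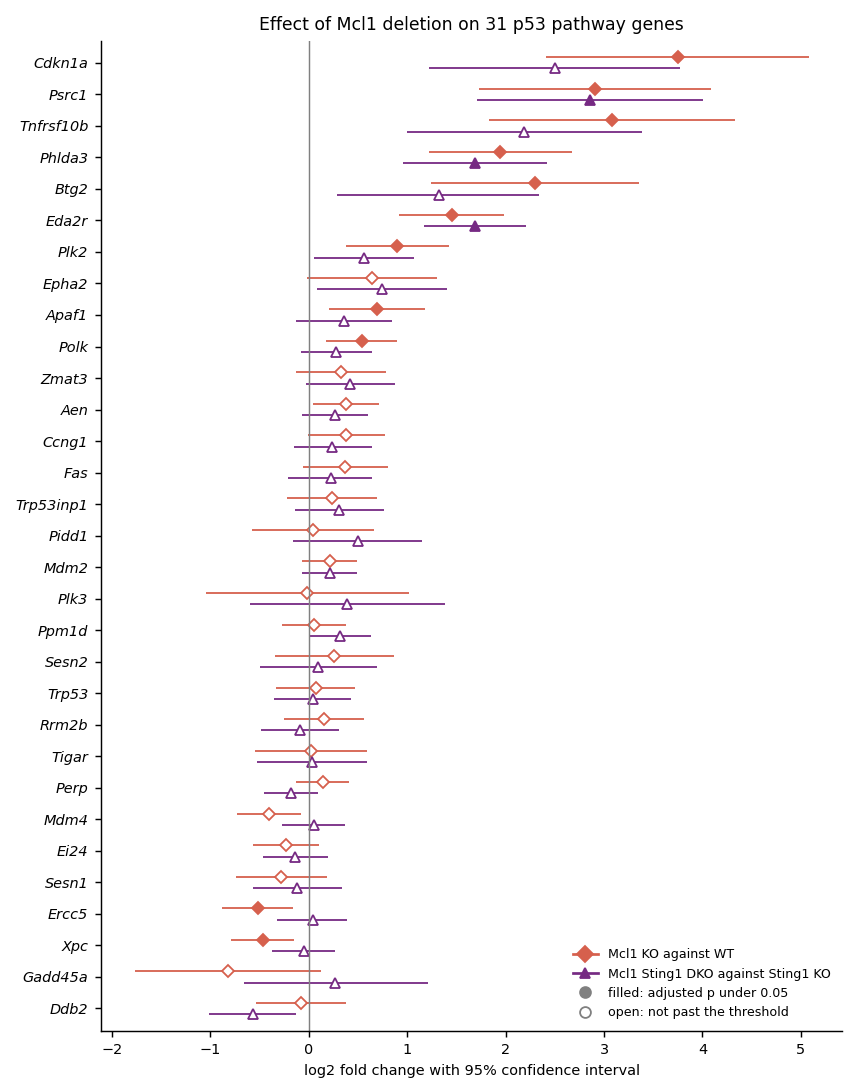
Log2 fold changes with 95% confidence intervals of the 31 genes between *Mcl1* KO and WT (diamonds) and between the libraries labelled DKO and *Sting1* KO (triangles), with filled symbols at an adjusted p under 0.05 and genes ordered by the mean of both effects. *Cdkn1a* lies at 3.75 and 2.5, and *Trp53* at 0.07 and 0.04.

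*Trp53* RNA itself did not pass the threshold in any comparison. It had 10.4, 8.9, and 12.3 CPM in WT, 13, 10.2, and 9.99 in *Mcl1* KO, 10.8, 10.1, and 8.59 in *Sting1* KO, and 12.1, 10.1, and 8.21 in DKO libraries. All 4 genotypes overlapped, and the log2 fold change between *Mcl1*-deleted and *Mcl1*-intact libraries was 0.05 (95% confidence interval -0.23 to 0.34, adjusted p = 0.803). *Mdm2*, the ligase that degrades p53 and is itself a p53 target, had 19.4, 22.9, and 19.2 CPM in WT, 22.9, 27, and 21.4 in *Mcl1* KO, 21, 20.7, and 22.5 in *Sting1* KO, and 27.2, 23.4, and 23.8 in DKO libraries. The DKO libraries were all above the *Sting1* KO libraries, while *Mcl1* KO and WT overlapped, and the log2 fold change over both backgrounds was 0.21 (interval 0.01 to 0.41, unadjusted p = 0.0403, adjusted p = 0.134). *Mdm4*, which blocks the transactivation domain of p53, had 22.5, 17.3, and 15.5 CPM in *Mcl1* KO and 22.8 to 26.3 in WT libraries (log2 fold change -0.41, adjusted p = 0.07). Its low values were in replicates 2 and 3. *Ppm1d*, a phosphatase that removes activating phosphates from p53, ranged from 4.71 to 6.98 CPM over all libraries (log2 fold change 0.18, adjusted p = 0.239).

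Of the 7 cell cycle genes, 4 were called higher in 6 against 6 libraries, compared with 9.9% of all tested genes. Between DKO and *Sting1* KO, 1 was called higher, compared with 0.677%. *Cdkn1a* encodes p21, an inhibitor of cyclin-dependent kinases, and had 0.475, 0.356, and 0.495 CPM in WT, 6.23, 11.2, and 2.47 in *Mcl1* KO, 0.233, 0.584, and 0.772 in *Sting1* KO, and 5.61, 2.49, and 1.7 in DKO libraries. The lowest *Mcl1*-deleted library was above the highest *Mcl1*-intact one, and levels within both *Mcl1*-deleted genotypes were spread over more than 3-fold. The log2 fold change over both backgrounds, which the prior count of the fit shrinks, was 3.12 (SE 0.42, adjusted p = 0.000769), an 8.7-fold difference. It was 3.75 (SE 0.61, adjusted p = 0.00313) between *Mcl1* KO and WT and 2.5 (SE 0.58, adjusted p = 0.0795) between DKO and *Sting1* KO, where DESeq2 gave an adjusted p of 0.000432.

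*Psrc1*, a microtubule-associated protein of the mitotic spindle, had 0.0264, 0.089, and 0.132 CPM in WT, 1.26, 0.765, and 0.854 in *Mcl1* KO, 0.204, 0.0531, and 0.121 in *Sting1* KO, and 2.2, 0.975, and 0.602 in DKO libraries. The groups with and without *Mcl1* did not overlap. However, *Psrc1* had only 1 to 7 counts in *Mcl1*-intact libraries and passed the filter only through the *Mcl1*-deleted groups. Whether the intronic site printed above has a part in its level was not tested. The log2 fold change of *Psrc1* was 2.91 (SE 0.54, adjusted p = 0.00549) between *Mcl1* KO and WT and 2.86 (SE 0.53, adjusted p = 0.0358) between DKO and *Sting1* KO. *Btg2*, an antiproliferative gene of the BTG/TOB family, had 6.81, 6.67, and 8.42 CPM in WT, 37.8, 44.1, and 26.7 in *Mcl1* KO, 18.3, 12.4, and 5.26 in *Sting1* KO, and 49.2, 28.2, and 12.5 in DKO libraries. It was clearly separated between *Mcl1* KO and WT (log2 fold change 2.3, SE 0.49, adjusted p = 0.0093), and overlapped between DKO and *Sting1* KO through DKO replicate 3 and *Sting1* KO replicate 1 (1.32, SE 0.47, adjusted p = 0.287). *Plk2*, a polo-like kinase of centriole duplication and the cell cycle checkpoint, had 13.7, 8.66, and 10.3 CPM in WT, 22.5, 18.1, and 20.5 in *Mcl1* KO, 11.5, 14.5, and 12.6 in *Sting1* KO, and 23.3, 21.7, and 12.1 in DKO libraries. Here too DKO replicate 3 was at the level of *Mcl1*-intact libraries, and the log2 fold change over both backgrounds was 0.73 (SE 0.17, adjusted p = 0.0128).

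The other 3 cell cycle genes did not pass the threshold. *Ccng1* (cyclin G1) ranged from 37.4 to 55.4 CPM in the *Mcl1*-intact and from 46.7 to 70.1 in the *Mcl1*-deleted libraries, with a log2 fold change of 0.31 (adjusted p = 0.115). *Gadd45a*, a stress sensor that arrests the cell cycle, had a log2 fold change of -0.82 between *Mcl1* KO and WT (interval -1.77 to 0.12) and of 0.27 between DKO and *Sting1* KO (interval -0.66 to 1.21). As 55.8% of its exon bases overlap a noncoding gene on the other strand and the strand setting of the counting was not stated, its counts are uncertain. *Plk3*, a stress-responsive polo-like kinase, varied from 13.9 to 61.8 CPM within WT alone, more than between the genotypes' means.

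**Figure D4:**
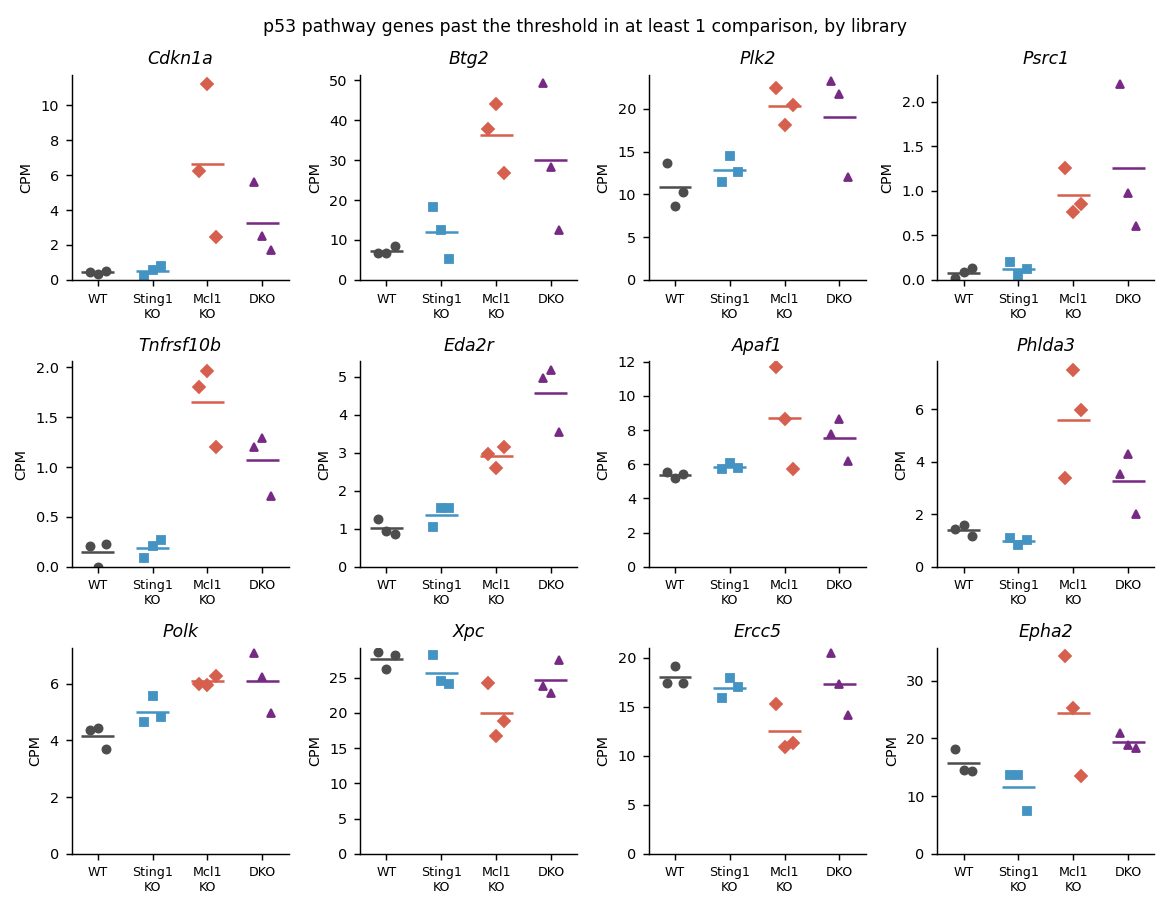
CPM of the 12 genes past the threshold in at least 1 comparison, with 1 point per library and bars at the mean of 3 libraries, on linear axes that start at 0. *Cdkn1a*, *Psrc1*, *Tnfrsf10b*, *Eda2r*, and *Phlda3* separate both *Mcl1*-deleted genotypes from WT and *Sting1* KO, and *Xpc* and *Ercc5* are lower in *Mcl1* KO than in WT libraries without overlap.

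Of the 11 cell death genes, 4 were called higher in 6 against 6 libraries, compared with 9.9% of all tested genes. Between DKO and *Sting1* KO, 2 were called higher, compared with 0.677%. Of the 4 genes, 2 are receptors of the TNF receptor superfamily. *Eda2r*, the receptor of ectodysplasin A2, had 1.27, 0.949, and 0.859 CPM in WT, 2.98, 2.6, and 3.16 in *Mcl1* KO, 1.05, 1.54, and 1.54 in *Sting1* KO, and 4.98, 5.19, and 3.56 in DKO libraries. It had the smallest p of the 31 genes in 6 against 6 libraries (log2 fold change 1.57, SE 0.17, adjusted p = 0.000307), and the DKO libraries were also all above the *Mcl1* KO libraries (0.64, SE 0.23, unadjusted p = 0.0176, adjusted p = 0.173). *Tnfrsf10b*, which encodes the only murine TRAIL death receptor, had 0.211, 0, and 0.231 CPM in WT, 1.8, 1.96, and 1.2 in *Mcl1* KO, 0.0873, 0.212, and 0.265 in *Sting1* KO, and 1.2, 1.29, and 0.711 in DKO libraries. Its log2 fold change was 3.08 (SE 0.57, adjusted p = 0.00549) between *Mcl1* KO and WT and 2.19 (SE 0.55, adjusted p = 0.0983) between DKO and *Sting1* KO, without overlap in either comparison. With only 0 to 11 counts in *Mcl1*-intact libraries, *Tnfrsf10b* passed the filter only through the *Mcl1*-deleted groups.

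*Phlda3*, which competes with AKT for membrane lipids and so represses survival signalling, had 1.45, 1.6, and 1.19 CPM in WT, 3.37, 7.5, and 5.98 in *Mcl1* KO, 1.11, 0.823, and 1.01 in *Sting1* KO, and 3.54, 4.29, and 2 in DKO libraries. All 6 *Mcl1*-deleted libraries were above the *Mcl1*-intact ones, with a log2 fold change of 1.82 over both backgrounds (SE 0.24, adjusted p = 0.000671). *Apaf1*, the core of the apoptosome that activates caspase-9 after release of cytochrome c, had 5.54, 5.19, and 5.42 CPM in WT, 11.7, 8.66, and 5.72 in *Mcl1* KO, 5.7, 6.1, and 5.81 in *Sting1* KO, and 7.75, 8.68, and 6.21 in DKO libraries. The *Mcl1* KO replicate with muscle transcripts was the lowest of the *Mcl1*-deleted libraries and was within the range of *Sting1* KO. The log2 fold change was 0.52 over both backgrounds (SE 0.16, adjusted p = 0.0406), and the call was kept when *Mcl1* KO replicate 1 or 3 or DKO replicate 3 was left out and lost in the other 9 cases (adjusted p 0.0629 to 0.0988).

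The other 7 cell death genes had values between -0.19 and 0.38 on the log2 scale in 6 against 6 libraries, and none passed the threshold. *Aen*, an apoptosis-enhancing nuclease, was nearest (0.32, adjusted p = 0.0626), followed by the RNA-binding protein gene *Zmat3* (0.38, adjusted p = 0.101) and the death receptor gene *Fas* (0.29, adjusted p = 0.166). *Trp53inp1*, a stress protein of autophagy and cell death, had 0.27 (adjusted p = 0.222), and *Pidd1*, a scaffold of caspase-2 activation, had 0.27 (adjusted p = 0.404). *Perp* (-0.02) and *Ei24* (-0.19), the most abundant of the 31 genes, had intervals of -0.22 to 0.17 and -0.42 to 0.05. The sites without mismatch printed above thus belong to genes whose log2 fold changes were 0.38 (*Zmat3*, interval 0.05 to 0.7) and 0.27 (*Trp53inp1*, interval -0.05 to 0.59).

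Of the 5 DNA repair genes, *Polk* was called higher and *Xpc* and *Ercc5* lower between *Mcl1* KO and WT livers. Among all tested genes, 10.8% were higher and 9.43% lower. *Polk*, a polymerase that copies past damaged bases, had 4.35, 4.45, and 3.7 CPM in WT, 6, 5.97, and 6.26 in *Mcl1* KO, 4.63, 5.55, and 4.83 in *Sting1* KO, and 7.08, 6.24, and 4.98 in DKO libraries. The *Mcl1* KO values lay within a narrow range above WT (log2 fold change 0.54, SE 0.17, adjusted p = 0.0412), and DKO and *Sting1* KO overlapped (0.28, SE 0.16, adjusted p = 0.588). With 1 of the 12 libraries left out, the call of *Polk* in 6 against 6 libraries was kept in 4 cases and lost in 8. *Xpc*, which recognizes helix distortions in nucleotide excision repair, had 28.6, 26.2, and 28.3 CPM in WT, 24.2, 16.7, and 18.9 in *Mcl1* KO, 28.2, 24.6, and 24.1 in *Sting1* KO, and 23.8, 22.8, and 27.5 in DKO libraries. *Ercc5*, the nuclease that cuts 3' of the lesion in the same process, had 17.4, 19.2, and 17.4 CPM in WT, 15.3, 10.9, and 11.3 in *Mcl1* KO, 15.9, 17.9, and 17 in *Sting1* KO, and 20.5, 17.3, and 14.2 in DKO libraries. For both genes, *Mcl1* KO was below WT without overlap, and the lowest libraries were replicates 2 and 3, those with low *Apob* and a high share of small structured RNAs, whose part in this result was not tested further than by the covariate.

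The log2 fold change between *Mcl1* KO and WT was -0.47 for *Xpc* (SE 0.15, adjusted p = 0.0423) and -0.52 for *Ercc5* (SE 0.16, adjusted p = 0.0438). With the small structured RNA covariate, it was -0.21 (adjusted p = 0.45) and -0.3 (adjusted p = 0.411), and under upper-quartile scaling -0.34 (adjusted p = 0.0959) and -0.39 (adjusted p = 0.107). In the libraries labelled DKO against *Sting1* KO, the values were -0.05 (interval -0.37 to 0.27) and 0.04 (interval -0.32 to 0.39). *Ddb2*, the damage sensor for ultraviolet lesions, had a log2 fold change of -0.33 in 6 against 6 libraries (adjusted p = 0.141), and 37% of its exon bases overlap *Acp2* on the other strand. *Rrm2b*, the p53-inducible subunit of ribonucleotide reductase, had 0.03 (interval -0.26 to 0.32).

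None of the 3 metabolic genes passed the threshold in any comparison. In 6 against 6 libraries, *Sesn1* and *Sesn2*, which restrain mTORC1 under stress, had log2 fold changes of -0.2 (interval -0.52 to 0.13) and 0.18 (interval -0.25 to 0.6). *Tigar*, a phosphatase that lowers glycolytic flux, had 0.03 (interval -0.37 to 0.43). *Epha2*, an ephrin receptor kinase and the 1 signalling gene, had 18.1, 14.5, and 14.4 CPM in WT, 34.3, 25.3, and 13.4 in *Mcl1* KO, 13.7, 13.6, and 7.33 in *Sting1* KO, and 20.9, 18.8, and 18.4 in DKO libraries. *Mcl1* KO replicate 3 was below all WT libraries, while the DKO libraries were all above the *Sting1* KO libraries. Its log2 fold change over both backgrounds was 0.69 (SE 0.21, adjusted p = 0.0461), and this call was kept when *Mcl1* KO replicate 3 was left out and lost when any of the other 11 libraries was (0.52 to 0.76, adjusted p 0.055 to 0.0994).

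Whether the *Sting1* knockout changed these genes was asked in 3 ways. Between the libraries labelled DKO and *Mcl1* KO, 0 of 31 genes passed the threshold, as did 0% of all tested genes. At an unadjusted p under 0.05 there were 3, *Ercc5* and *Eda2r* higher and *Phlda3* lower in DKO, compared with 3098 of 15070 genes. The members' median log2 fold change was 0.00, and the 95% interval for *Cdkn1a* was -2.18 to 0.16 (log2 fold change -1.01, adjusted p = 0.298), an interval that holds both 0 and a fall by 2.18. Without *Mcl1* KO replicate 1, the libraries of replicates 2 and 3 alone stood for *Mcl1* KO, and 4 genes were called, namely *Ercc5* (0.65, adjusted p = 0.0146), *Xpc* (0.47, adjusted p = 0.024), and *Mdm4* (0.46, adjusted p = 0.0255) as higher and *Phlda3* (-1.02, adjusted p = 0.0334) as lower in DKO. In the same fit, 3108 of all 15357 tested genes (20.2%) were called, a larger share than that of the members.

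Between the libraries labelled *Sting1* KO and WT, 0 of 31 genes passed the threshold, compared with 0% of all tested genes, and 0 had an unadjusted p under 0.05, compared with 821 of 15070. The test of the difference between both *Mcl1* effects also called 0 of 31 and 0% of all tested genes. *Ercc5* was the 1 gene with an unadjusted p under 0.05 (difference 0.56 on the log2 scale, interval 0.05 to 1.06, adjusted p = 0.322), compared with 2165 of 15070 genes, and without *Mcl1* KO replicate 1 the difference was called for *Ercc5*, *Mdm4*, and *Xpc*, and for 1574 of all 15357 tested genes (10.2%). DESeq2 called 0 of the 31 genes in these 3 comparisons, in which it called 663, 51, and 170 of the 24525 genes with counts, those it set aside from adjustment included. The calls for *Cdkn1a*, *Tnfrsf10b*, and *Btg2* on 1 *Sting1* background and not on the other are therefore not shown to differ between backgrounds.

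To place the 31 genes in the pathway, 3 further lists were counted. Of 30 other p53-linked genes, 27 were tested. In 6 against 6 libraries, 8 of them were higher and 1 was lower, compared with 9.9 and 6.83% of all tested genes. Those with the largest changes were *Ckap2* (3.69, SE 0.52), *Gtse1* (2.6, SE 0.34), *Ak1* (2.53, SE 0.68), *Gadd45b* (1.56, SE 0.35), *Gdf15* (1.48, SE 0.28), and *Dyrk3* (0.96, SE 0.25). *Ckap2* and *Gtse1* are expressed in mitosis, *Gdf15* is a stress cytokine, and *Ak1*, an adenylate kinase of muscle, had 17.8 CPM in the *Mcl1* KO library with muscle transcripts and at most 2.08 in the other 11. The 1 lower gene was *Cop1*, a ligase that degrades p53 (-0.32, SE 0.09, adjusted p = 0.0325). *Bax*, a pore-forming apoptosis effector that MCL1 restrains, was named after its values were seen, and had a log2 fold change of 0.64 (SE 0.18, adjusted p = 0.0346). Between *Mcl1* KO and WT, 7 of the 27 were higher and 2 lower, compared with 10.8 and 9.43% of all tested genes. Between DKO and *Sting1* KO, *Gtse1* was higher and 0 were lower, compared with 0.677 and 0.126% of all tested genes.

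Of 12 genes upstream of p53, 11 were tested, and the checkpoint kinases *Chek1* (2.43, SE 0.36, adjusted p = 0.00126) and *Chek2* (0.59, SE 0.16, adjusted p = 0.0278) were higher in 6 against 6 libraries. In that comparison 9.9% of all tested genes were higher, and between *Mcl1* KO and WT 10.8% were higher and 9.43% lower. Between *Mcl1* KO and WT, *Chek1* was higher (2.74, adjusted p = 0.00616) and *Atm*, the kinase that signals DNA breaks to p53, was lower (-0.72, adjusted p = 0.0368), with 11.4 and 10.6 CPM in *Mcl1* KO replicates 2 and 3 and 19.8 in replicate 1. The third list held 15 genes of the cell cycle that p53 is known to lower through p21 and the DREAM repressor complex. All 15 were higher in 6 against 6 libraries and between *Mcl1* KO and WT, and 9 were higher between DKO and *Sting1* KO. Among all tested genes, 9.9, 10.8, and 0.677% were higher in these comparisons. *Cdc25c*, with 0 to 4 counts in WT and 0 to 11 in *Sting1* KO, passed the filter only through the *Mcl1*-deleted groups. The median log2 fold changes of the 15 genes were 3.16, 3.51, and 2.89. The largest in 6 against 6 libraries were those of *Cdc20* (4.23), *Ccnb1* (3.96), *Ccnb2* (3.62), *Kif20a* (3.41), *Birc5* (3.35), and *Plk1* (3.3), all genes of mitosis. Their summed level was 14.9 to 17.6 CPM in WT, 87 to 269 in *Mcl1* KO, 19.5 to 35.2 in *Sting1* KO, and 72.9 to 339 in DKO libraries. *Cdkn1a* and the summed level of the genes lowered through its product were thus higher in the same 6 libraries. *Mcl1* KO replicate 3 and DKO replicate 3 had the lowest values of their genotypes in both, at 2.47 and 1.7 CPM for *Cdkn1a* and 87 and 72.9 for the summed list. The orders differed elsewhere, since in *Mcl1* KO *Cdkn1a* was highest in replicate 2 (11.2) and the list in replicate 1 (269). In *Sting1* KO the orders were opposite, with 0.233, 0.584, and 0.772 for *Cdkn1a* and 35.2, 23.9, and 19.5 for the list.

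**Figure D5:**
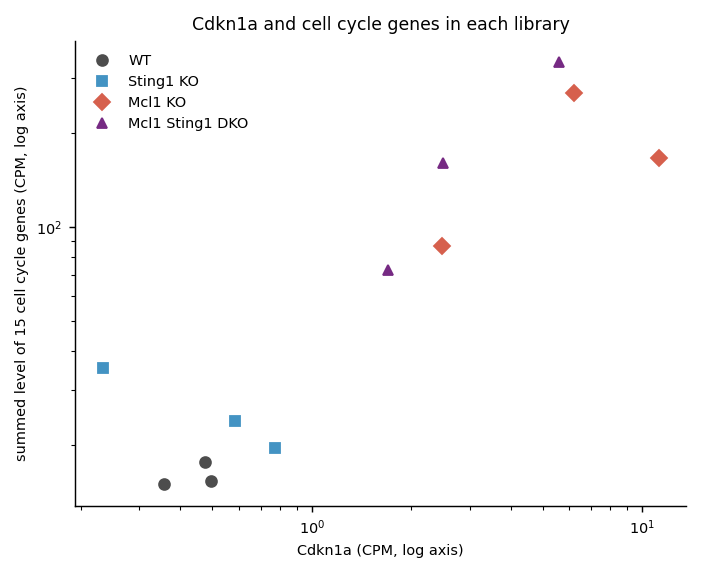
*Cdkn1a* (horizontal, CPM) and the summed level of the 15 cell cycle genes (vertical, CPM) in each of the 12 libraries, both on log axes, with symbols for the genotypes. The 6 *Mcl1*-deleted libraries lie at 72.9 CPM and above for the list and at 1.7 and above for *Cdkn1a*, and the 6 *Mcl1*-intact libraries at no more than 35.2 and 0.772.

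Markers of other cells were counted in the same libraries. For comparison, 9.9% of all tested genes were higher and 6.83% lower in 6 against 6 libraries. The summed level of 6 stellate cell and fibroblast markers was 258 to 438 CPM in WT, 567 to 684 in *Mcl1* KO, 278 to 363 in *Sting1* KO, and 438 to 649 in DKO libraries, and 3 of 6 were higher in 6 against 6 libraries (*Col1a1*, *Col3a1*, and *Pdgfrb*). For 6 macrophage markers, it was 339 to 501 in WT, 609 to 767 in *Mcl1* KO, 425 to 593 in *Sting1* KO, and 548 to 628 in DKO, and 2 of 6 were higher (*Cd68* and *Lyz2*). For 4 neutrophil markers, it was 1.79 to 2.74 in WT, 6.6 to 18.8 in *Mcl1* KO, 1.22 to 4.85 in *Sting1* KO, and 3.11 to 4.19 in DKO, and the 3 tested, *S100a8*, *S100a9*, and *Retnlg*, were higher. One of 4 tested T and NK cell markers, *Cd8a*, was higher, and 0 of the cholangiocyte, B cell, and endothelial markers passed the threshold. Of 7 hepatocyte markers, *Cyp2e1* and *Serpina1c* were lower, and all 7 had negative log2 fold changes (median -0.24). Between *Mcl1* KO and WT, 6 of the 7 were negative (median -0.46). Their summed level, most of it *Alb* (59841 to 120390 CPM), ranged from 94610 to 156640 CPM over all libraries. The part of these cells in the rise of the p53 target genes was not tested.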

How the data were processed

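Total RNA of 12 mouse livers was sequenced on an Illumina NovaSeq by the authors, who deposited the raw count of each Ensembl gene as an integer that had not been normalized. Their processing notes name STAR, featureCounts, and GRCm39. Versions, annotation, and use of strand were not given in the sources used here, and the RNA kit differs between labels and paper. Depth was 28826367 to 45266387 counts per library, and p-values measure the spread between 3 livers per genotype.

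Genotypes were taken from the labels. Counts were tested with edgeR 4.0.16 in R 4.3.3 (glmQLFit and glmQLFTest, TMM factors, filterByExpr by genotype, prior count 2), with all 12 libraries in 1 model without covariates, Benjamini-Hochberg adjustment over 15070 genes, and a threshold of 0.05. The log2 fold changes and folds given for edgeR are shrunken by the prior count, most for genes with few counts. Each SE was the absolute shrunken log2 fold change divided by the square root of the quasi-likelihood F statistic. Confidence intervals were built from these SEs. Both are therefore approximate and are not standard errors or intervals of the model itself. DESeq2 1.42.0 was an alternative. TPM used summed exon lengths of GENCODE vM39 (GRCm39), which holds 39533 of 40551 identifiers and all 137 list genes. Sequences were read from GRCm39 at GENCODE canonical starts. Tables and plots were made in Python 3.11.15 with pandas 2.3.3, numpy 2.4.6, and matplotlib 3.10.9.

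The members and lists were chosen with earlier results of these data known. All 31 members are accounted for, with values per library for each member past the threshold in any of 6 comparisons and for *Trp53*, *Mdm2*, and *Cdkn1a*. From other lists, up to 6 called genes with the largest change are named. The fits were tested on simulated counts, with 200 genes changed by 1 on the log2 scale in both *Mcl1*-deleted genotypes. Of these, edgeR recovered 49 between *Mcl1* KO and WT, with 3 false calls, and 166 in 6 against 6 libraries, with 5. No 2 libraries of a genotype agreed within sampling noise (chi-square of at least 40.1 per degree of freedom). Alternatives were other scaling, filters, covariates, DESeq2, a fit of only the genotypes compared, omission of each library in turn, and a replicate block. The fit of the 9 libraries without Y-linked expression was chosen after seeing the data. One promoter sequence is not reported here.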

Additional observations from a re-analysis of the deposited data

How the results depend on the processing

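In 6 against 6 libraries, the 10 called members became 7 to 13 with 1 library left out. Among all tested genes, 16.7% were called in this comparison, and 11.1 to 27.8% with 1 library left out. Between *Mcl1* KO and WT, the 11 called members became 7 without a filter on low counts, 7 with only the genotypes compared, 4 with the small structured RNA covariate, 6 with the Y-linked covariate, 0 in the libraries without Y-linked expression, where WT is 1 library, and 6 (without WT replicate 2 or 3) to 12 (without *Mcl1* KO replicate 1 or 3) with 1 left out. The 3050 called among all genes became 2620, 1178, 485, 1531, and 4 in the first 5 of these. Between DKO and *Sting1* KO, the 3 became 5 by DESeq2, 0 with only the genotypes compared, 1 with the Y-linked covariate, 0 without Y-linked libraries, and 0 (without DKO replicate 1 or 2 or any *Sting1* KO library) to 4 (without DKO replicate 3) with 1 left out. The 0 between DKO and *Mcl1* KO became 0 to 4, and the 0 for the difference of effects 0 to 3, both highest without *Mcl1* KO replicate 1. *Sting1* KO against WT kept 0 in every alternative run. The shares of all genes called moved as well. Between *Mcl1* KO and WT, they were 20.2% in the main fit and 7.99 to 34.1% with 1 library left out. Between DKO and *Sting1* KO, they were 0.803% in the main fit and 0.0065 to 1.62% with 1 library left out. DESeq2 called 1.88% there, and the Y-linked covariate gave 0.299%. The cause of these shifts was not tested, except that fits of fewer libraries have fewer degrees of freedom.

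*Trp53* changed sign between DKO and *Sting1* KO (0.04, and -0.04 with the Y-linked covariate, -0.11 without Y-linked libraries, -0.10 to 0.19 with 1 library left out), in 6 against 6 (0.05, and -0.01 without Y-linked libraries, -0.02 to 0.14 with 1 left out), and between *Mcl1* KO and WT (0.07, and -0.07 to 0.19 with 1 left out). Of 670 values of called genes, *Trp53*, and *Mdm2* under alternatives, 508 kept direction and side of the threshold, 147 lost the call, 5 gained one, and 10 changed sign, all of *Trp53*.

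Upper-quartile scaling shifted the median of all genes between *Mcl1* KO and WT to 0.13 and the share of higher among called genes from 53.4 to 73.4% (2222 higher and 807 lower), and in 6 against 6 from 59.2 to 76.3%. The members called were then 10 higher and 0 lower, and 13 higher. Deviations from the genotype means had correlations of -0.541 to 0.251 between same-numbered libraries of different genotypes. Between differently numbered ones, the correlations were -0.239 to 0.441. Expression of Y-linked genes also differed within WT and DKO, so these values cannot decide whether the numbers pair livers. With a replicate block, 10, 2, and 10 members were called between *Mcl1* KO and WT, between DKO and *Sting1* KO, and in 6 against 6. In the same fit, 17.2, 0.856, and 15% of all tested genes were called. With 3 livers per genotype, intervals such as that of *Mdm2* between *Mcl1* KO and WT (-0.07 to 0.49) limit which small changes could be seen.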
